A study of Homo sapiens with 9 samples.

Results

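S100B is a small calcium-binding protein that astrocytes release. Outside cells it binds RAGE, the receptor encoded by AGER, and it is known to support neurons at low concentrations and to harm them at high ones. LAN-5 is an established human neuroblastoma line with a neuroblast-like, noradrenergic character. The comparison is of 3 arrays from LAN-5 cells given S100B at 5 µM with 3 arrays from untreated cells, which received culture medium alone, chosen by their sample titles, and it uses 6 of the 9 arrays of the series. The other 3 arrays come from cells given 0.5 nM S100B and appear here only as a side value and in the estimate of the spread. All groups were grown in complete DMEM to 80% confluence and plated at 60000 cells per cm2, and all are samples of 1 commercial line. How long the cells were treated, and where the protein came from, is not given in the sources used here. By its design text, the 3 arrays of each group are biological replicates, and the p-values measure the spread between them.

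Of the 8793 probe sets on the array, a probe set being the group of oligonucleotides that reads 1 transcript, 8746 are not manufacturer's controls. The 5830 brightest of these were tested. Values are on the log2 scale. Array medians lay between 6.60 and 6.64, and correlations across tested probe sets were 0.993 to 0.997 within groups and 0.994 to 0.997 between them. Averaged over 18 spike-in controls, untreated replicate 1 stood at 8.70 and the other 5 arrays compared at 9.04 to 9.43. Without untreated replicate 1, 4 of the 17 calls described below passed, as did 4 without untreated replicate 3. Leaving out any other array of these groups left 5 to 9 of them. The number of arrays limits the precision, and the 95% interval of a single difference reached 0.156 to either side at the median probe set.

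Cells make cholesterol from acetyl-CoA through mevalonate, squalene and lanosterol. When sterols are plentiful in the endoplasmic reticulum, INSIG proteins hold the SREBP transcription factors there, and the genes of the pathway are transcribed less. When oxysterols accumulate, the nuclear receptor LXR raises genes that export cholesterol. Promoters of sterol-synthesis genes are known to pair SREBP sites with CCAAT boxes that bind NF-Y.

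Promoter windows of changed genes are shown first, to set genes of the sterol pathway beside changed genes outside it. Each is the 250 bases before the start site from RefSeq (GRCh38.p14), written 5′ to 3′ on the gene's strand, with CCAAT or its reverse complement ATTGG in capitals. MSMO1, a sterol C4-methyl oxidase, and HSD17B7, a 3-ketosteroid reductase, act in sterol synthesis. CRABP2, a carrier of retinoic acid, and CHRM3, the muscarinic acetylcholine receptor M3, do not.
MSMO1, chr4:165327419-165327668, plus strand: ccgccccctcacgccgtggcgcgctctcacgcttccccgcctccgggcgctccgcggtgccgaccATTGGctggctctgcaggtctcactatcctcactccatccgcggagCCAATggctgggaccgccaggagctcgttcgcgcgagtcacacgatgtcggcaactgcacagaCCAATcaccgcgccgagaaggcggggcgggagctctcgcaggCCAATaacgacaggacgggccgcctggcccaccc
HSD17B7, chr1:162790452-162790701, plus strand: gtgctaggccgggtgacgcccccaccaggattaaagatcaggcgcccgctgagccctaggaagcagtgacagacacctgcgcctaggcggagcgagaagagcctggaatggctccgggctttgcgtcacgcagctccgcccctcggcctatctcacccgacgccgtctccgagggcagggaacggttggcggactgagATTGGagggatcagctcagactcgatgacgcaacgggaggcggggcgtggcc
CRABP2, chr1:156705785-156706034, minus strand: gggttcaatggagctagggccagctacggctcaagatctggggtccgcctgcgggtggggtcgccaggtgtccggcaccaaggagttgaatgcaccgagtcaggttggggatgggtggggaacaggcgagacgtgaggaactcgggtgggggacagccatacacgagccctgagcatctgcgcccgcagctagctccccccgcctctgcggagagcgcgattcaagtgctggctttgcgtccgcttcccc
CHRM3, chr1:239386318-239386567, plus strand: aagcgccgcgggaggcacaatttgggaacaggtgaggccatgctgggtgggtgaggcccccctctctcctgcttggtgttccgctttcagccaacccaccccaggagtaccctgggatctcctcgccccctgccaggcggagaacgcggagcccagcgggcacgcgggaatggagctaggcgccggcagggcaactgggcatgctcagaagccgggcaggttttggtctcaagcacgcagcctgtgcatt

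The MSMO1 window held 4 CCAAT boxes, beginning 185, 139, 76 and 34 bases before the start site. The HSD17B7 window held 1, beginning 52 bases before it, and those of CRABP2 and CHRM3 held 0. Over windows that also take in the first 50 bases of the transcript, 12 of the 13 changed genes with a symbol were in the RefSeq table. CCAAT on either strand stood in 8 of 8 changed sterol-synthesis genes and in 2 of 4 other changed genes, INSIG1 and PPEF1. It also stood in 6 of 8 sterol-synthesis genes that were tested and did not pass, in 44.8% of all tested genes with a window, and in 34.6% of all 35116 windows. The sterol regulatory element TCACNCCAC was found in 0 of the windows of these sterol-synthesis genes or of the other changed genes, against 1.73% of tested genes. With so few genes, 0 cannot be told from that share, and only these exact letters were searched. A match, or the lack of one, is a description of the letters and not of a bound site.

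The first question was which transcripts differed between cells at 5 µM and untreated cells. At limma's adjusted p under 0.05, 17 of 5830 probe sets fell (0.292%) and 0 rose. Of the 17, 9 belong to sterol-synthesis enzymes, 4 to other genes with 1 symbol, namely INSIG1, CRABP2, CHRM3 and PPEF1, and 4 have no symbol in the probe-to-gene table. The falls ran from -0.31 to -1.14 with a median of -0.57, which left 80.8% to 45.2% of the untreated level. In each of the 17 the highest treated array was under the lowest untreated one, which held for 9.47% of all tested probe sets. In bulk RNA, a loss of cells that carry a transcript and a loss of the transcript in each cell cannot be told apart.

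The bulk of the array moved little. The differences of 5830 probe sets had a 1st percentile of -0.28 and a 99th of 0.20, and 13 were lower by 0.5 or more against 1 higher. Of the 5830, 61.9% had a difference below 0. An unadjusted p under 0.05 was reached by 312 lower probe sets (5.35%) and 87 higher ones (1.49%). This excess of lower values depends on the scaling of the arrays. After quantile normalization the counts were 185 lower and 180 higher, and after centring each array on its median 185 and 152. The treated arrays lay all above the untreated ones in 2.86% of probe sets as deposited and in 7.96% after quantile normalization.

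**Figure D1:**
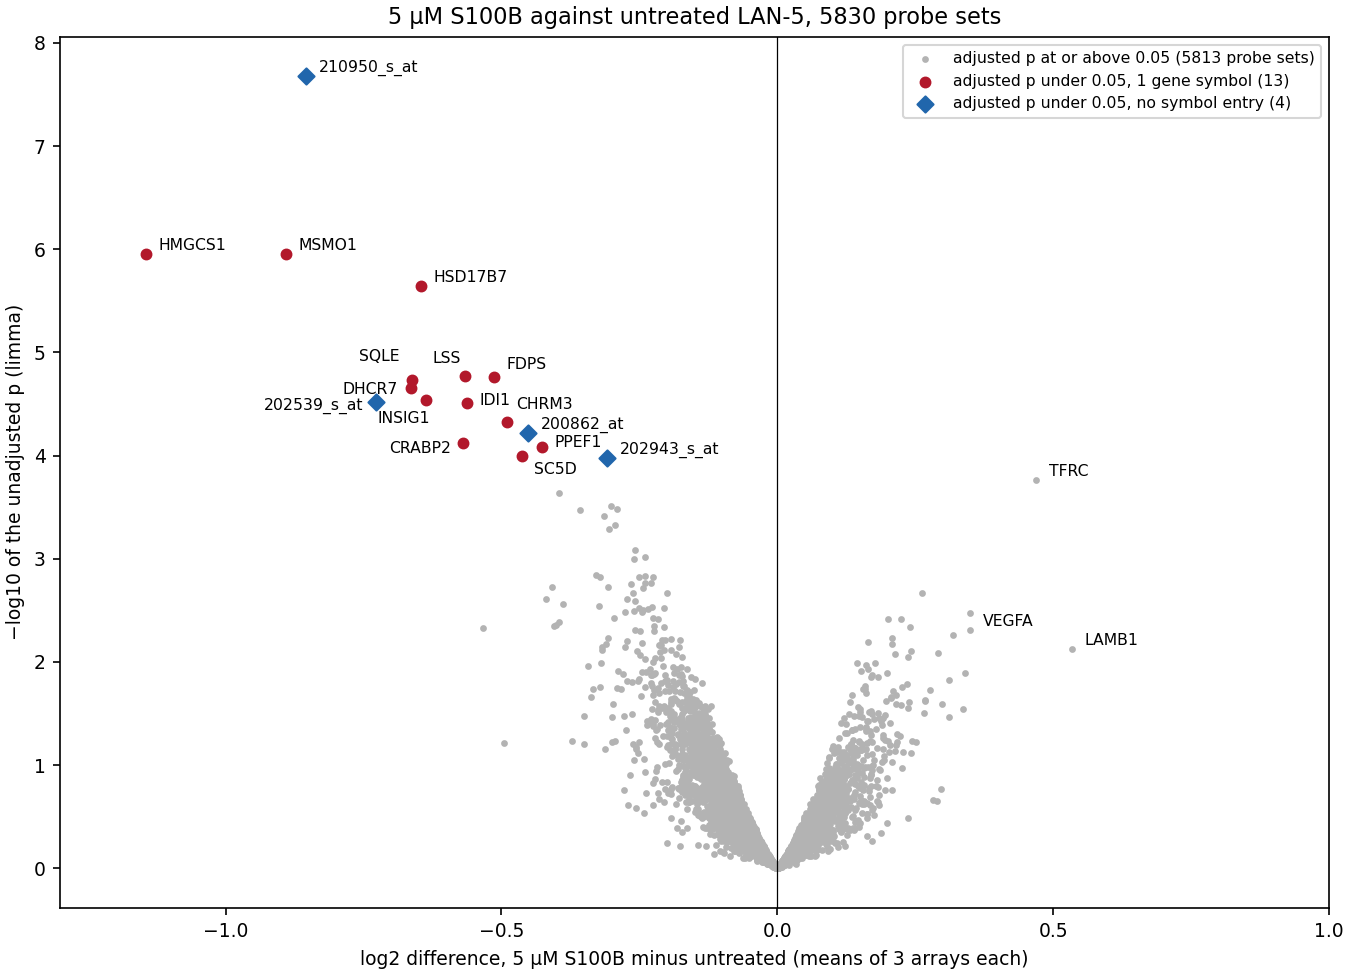
Log2 difference between 5 µM S100B and untreated LAN-5 (means of 3 arrays each, x axis) against −log10 of limma's unadjusted p (y axis) for 5830 probe sets. The 17 probe sets past the adjusted threshold, 13 with a symbol (red) and 4 without (blue), all lie on the lower side, from -0.31 to -1.14, and TFRC at 0.47 is the nearest on the higher side.

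The probe sets with no symbol entry include the one with the smallest p on the array. 210950_s_at read 12.08, 11.96 and 12.06 in untreated cells and 11.19, 11.21 and 11.14 at 5 µM. The treated arrays are tightly grouped and well below the untreated ones, although this is the brightest of the changed probe sets. It fell by 0.85 ± 0.058 (SE, n = 3 per group) to 55.3% of untreated, with a 95% interval of -0.98 to -0.73 and limma's adjusted p = 0.000123.

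202539_s_at read 9.74, 9.70 and 9.61 untreated and 8.79, 9.12 and 8.96 treated. The groups do not overlap, and the treated arrays spread more widely than the untreated ones. It fell by 0.73 ± 0.10 (SE, n = 3 per group) to 60.4% of untreated (limma's adjusted p = 0.0162). Limma's adjusted p was 0.103, 0.093 and 0.0967 without untreated replicates 1, 2 and 3, and 0.0808 and 0.0637 without 5 µM replicates 1 and 3.

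200862_at read 10.42, 10.35 and 10.47 untreated and 9.85, 10.07 and 9.97 treated. It fell by 0.45 ± 0.07 (SE, n = 3 per group) to 73.1% (limma's adjusted p = 0.027). The call was lost after quantile normalization (limma's adjusted p = 0.0764), after centring (0.0507) and in a fit of only the 6 arrays compared (0.0564). It was also lost without untreated replicate 1 (0.129), 2 (0.093) or 3 (0.188), 0.5 nM replicate 2 (0.0611), or 5 µM replicate 1 (0.12) or 3 (0.0907). Its groups are closer together than those of the preceding probe sets and still do not overlap.

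202943_s_at read 7.29, 7.34 and 7.36 untreated and 7.05, 7.00 and 7.01 treated. It fell by 0.31 ± 0.051 (SE, n = 3 per group) to 80.8% (limma's adjusted p = 0.0363), the smallest fall among the 17. Both groups were tight. It passed in 1 of the 9 fits that left out an array, the one without 0.5 nM replicate 1. In the others limma's adjusted p was 0.0554 to 0.241, and it was 0.0699 in a fit of only the 6 arrays compared. Probe sets with no entry made up 331 of those tested, and 4 of them passed, against 13 of 5226 with 1 symbol and 0 of 273 with several. Among the 604 without exactly 1 symbol, 45 had an unadjusted p under 0.05, 31 lower and 14 higher. Of these that did not pass, the most negative and most positive, chosen after their values were seen, were 202314_at at -0.53 (limma's adjusted p = 0.4) and 202581_at at 0.35 (limma's adjusted p = 0.348).

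Among the enzymes of sterol synthesis, 9 of 17 tested genes fell and 0 rose, and the list median was -0.46 against -0.024 over all tested probe sets. The treated arrays were all under the untreated ones in 14 of the 17, against 9.47% of all tested probe sets. HMGCS1, which makes HMG-CoA, read 8.82, 8.74 and 9.17 untreated and 7.76, 7.80 and 7.73 treated. It fell by 1.14 ± 0.12 (SE, n = 3 in each group) with limma's adjusted p = 0.00217, and was the only tested probe set lower by 2-fold or more. The count of this list that passed was 3 without untreated replicate 1 or 3, and 4 without 5 µM replicate 1 or 2. Without untreated replicate 1, limma's adjusted p was 0.102 for SQLE and FDPS, 0.103 for DHCR7 and IDI1, 0.0658 for LSS and 0.22 for SC5D.

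HSD17B7 reduces a 3-keto sterol intermediate and can also act on oestrone. It read 9.38, 9.34 and 9.40 untreated and 8.60, 8.70 and 8.89 treated. The groups do not overlap, and the treated arrays spread more than the untreated ones. It fell by 0.65 ± 0.07 (SE, n = 3 per group) to 63.9% (limma's adjusted p = 0.0033). Its probe set is of the x_at type, which can bind related transcripts, as is that of the isomerase IDI1, so signal from near-identical copies is not separated there. Of 7 tested genes of the list of other hydroxysteroid dehydrogenases 0 passed and 5 were lower (3 after centring), and the median was -0.02, with HSD17B12, which elongates fatty acids, at -0.20.

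MSMO1 read 9.92, 10.04 and 10.10 untreated and 9.19, 9.16 and 9.05 treated, and fell by 0.89 (limma's adjusted p = 0.00217). The squalene epoxidase SQLE read 10.42, 10.43 and 10.49 untreated and 9.54, 9.91 and 9.90 treated. In both the groups stand apart. DHCR7, which completes a route to cholesterol, read 9.40, 9.12 and 9.36 untreated and 8.56, 8.56 and 8.77 treated. The smaller falls were those of LSS at -0.57, which cyclises squalene epoxide, of IDI1 at -0.56, of FDPS at -0.51, which makes farnesyl diphosphate, and of SC5D at -0.46, a sterol desaturase. The decarboxylase MVD read 7.06, 6.85 and 6.88 untreated and 6.47, 6.55 and 6.58 treated, and at -0.40 did not pass (limma's adjusted p = 0.0706). ERG28, a scaffold of the sterol demethylation complex outside the list, was at -0.36 (limma's adjusted p = 0.0888).

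The protein made from INSIG1 keeps SREBP in the endoplasmic reticulum. INSIG1 read 8.57, 8.57 and 8.71 untreated and from 7.83 to 8.11 treated. All treated arrays are well below the untreated ones. It fell by 0.64 ± 0.091 (SE, n = 3 per group) to 64.3% (limma's adjusted p = 0.0162). The call was lost without untreated replicate 1 (limma's adjusted p = 0.102), 2 (0.0802) or 3 (0.119), or 5 µM replicate 1 (0.0808) or 3 (0.0602). It was the 1 of 6 tested genes of sterol sensing and LDL uptake to pass. The transcription factor SREBF1 was at 0.16 and the lysosomal sterol carrier NPC2 at -0.13, and neither passed.

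CRABP2 carries retinoic acid to its nuclear receptor. It read 9.33, 9.44 and 9.43 untreated and 8.68, 8.89 and 8.93 treated. The highest treated array lies below the lowest untreated one. It fell by 0.57 ± 0.091 (SE, n = 3 per group) to 67.4% (limma's adjusted p = 0.0314). Of 10 tested genes of retinoic acid handling and response, CRABP2 alone passed, 7 were lower and 3 higher (5 and 5 after quantile normalization), and the median was -0.019. After quantile normalization CRABP2 was at -0.53 and did not pass (limma's adjusted p = 0.0764), nor did it without the filter (0.052) or in a fit of only the 6 arrays compared (0.0516). It passed only without 0.5 nM replicate 2 or 3 among the 9 fits that left out an array. In the others limma's adjusted p was 0.0531 to 0.197, with 0.103 without untreated replicate 1.

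CHRM3 couples acetylcholine to Gq and calcium release. It read 7.34, 7.33 and 7.44 untreated and 6.95, 6.84 and 6.86 treated. Both groups are tight and separate. It fell by 0.49 ± 0.074 (SE, n = 3 per group) to 71.2% (limma's adjusted p = 0.0228). Without untreated replicates 1, 2 and 3 limma's adjusted p was 0.103, 0.093 and 0.171, and without 5 µM replicates 1, 2 and 3 it was 0.0754, 0.135 and 0.0907. Among 16 tested genes of Gq receptor signalling it alone passed, and the median was -0.012, with 9 lower as deposited and 5 lower after quantile normalization. The kinase PRKCA at 0.24 and the calcium channel ITPR1 at 0.18 lay on the other side and did not pass.

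PPEF1 is a protein phosphatase with calcium-binding EF hands. It read 8.02, 8.08 and 8.10 untreated and 7.54, 7.68 and 7.71 treated. These groups do not overlap either. It fell by 0.43 ± 0.069 (SE, n = 3 per group) to 74.4% (limma's adjusted p = 0.0321). Without untreated replicates 1, 2 and 3 the value was 0.103, 0.171 and 0.2, without 5 µM replicates 1, 2 and 3 it was 0.147, 0.122 and 0.0637, and without 0.5 nM replicate 3 it was 0.0554. In a fit of only the 6 arrays compared it was 0.0516. Of 15 tested calcium-handling genes PPEF1 alone passed, and the calcium pump ATP2B1 was at 0.16.

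**Figure D2:**
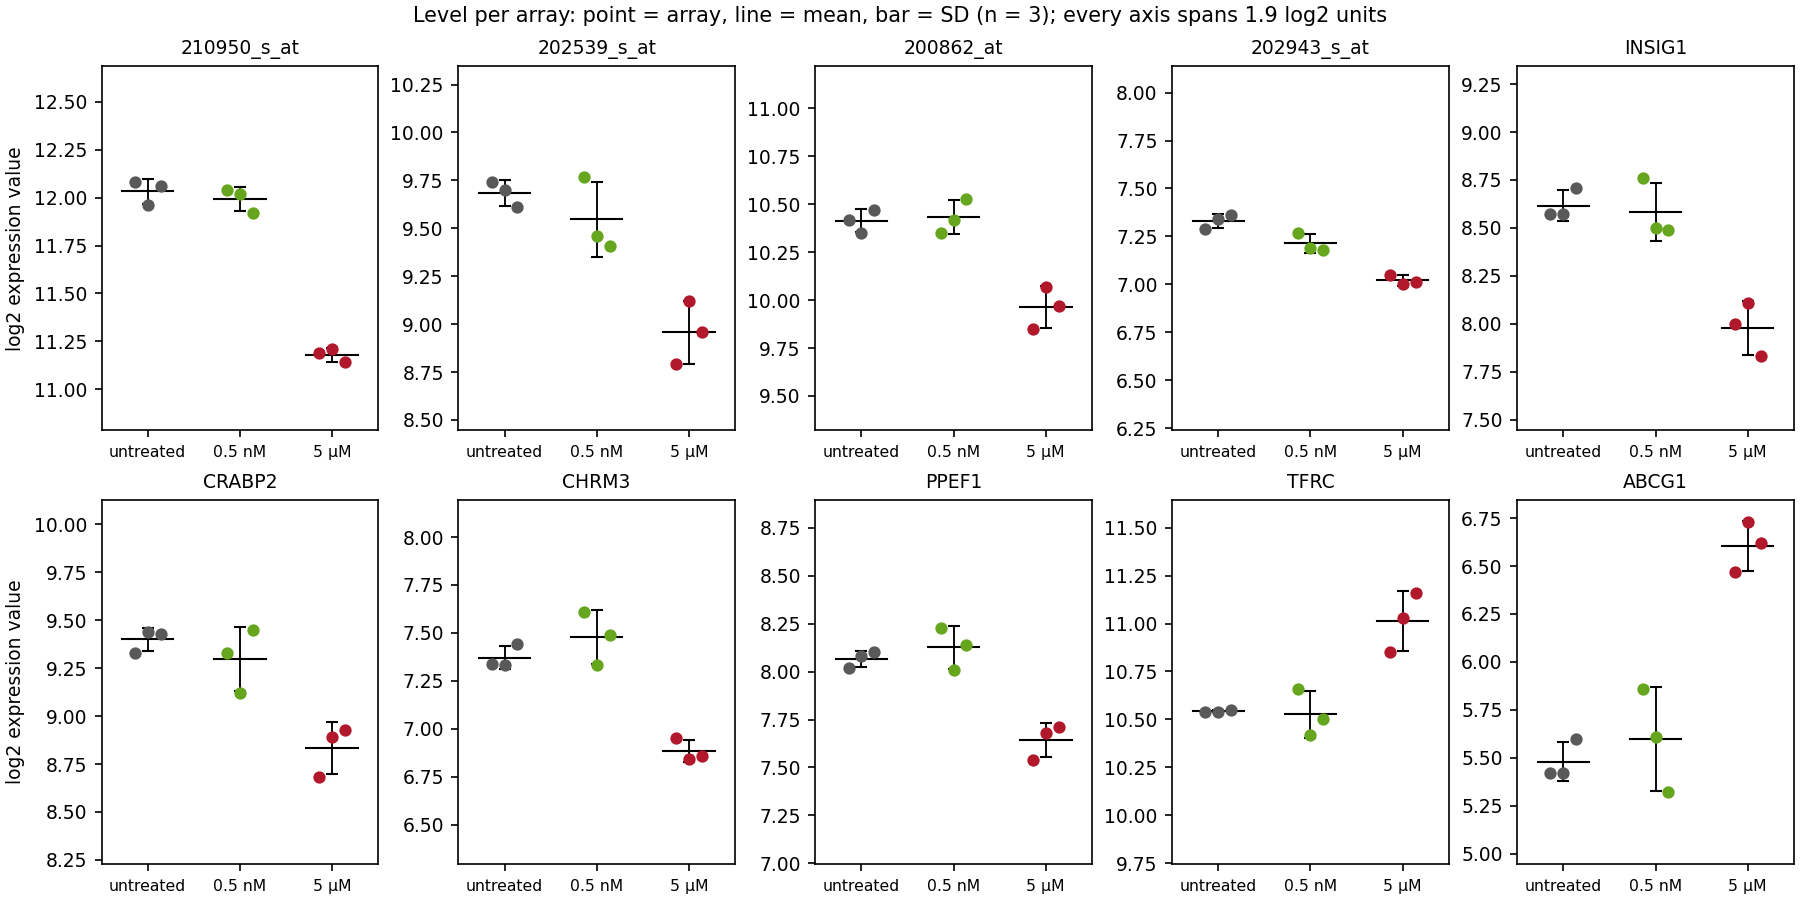
Log2 level on each array (points) for 10 probe sets in untreated cells, at 0.5 nM and at 5 µM S100B, with the mean (line) and SD (bar) of the 3 arrays of a group. For 210950_s_at the 5 µM arrays lie at 11.14 to 11.21 and the untreated arrays at 11.96 to 12.08, and the 0.5 nM arrays lie at 11.92 to 12.04.

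The arrays at 0.5 nM give a side value for these probe sets. Those cells also received S100B, so they are not a measure of the variation of untreated cells. The 0.5 nM mean of the 17 changed probe sets differed from the untreated mean by -0.15 to 0.11, and in 15 of the 17 the arrays of these groups overlapped. All 3 arrays at 5 µM lay below all 3 at 0.5 nM in 17 of 17, an outcome favoured by choosing the 17 for their low 5 µM arrays. The share of all tested probe sets was not counted for either comparison with 0.5 nM. Both contrasts share the untreated or the treated arrays, so these values are set side by side only. Averaged over the 17, the 5 µM arrays stood at -0.67, -0.59 and -0.61 from the untreated mean, which is a description, since the 17 were chosen by a test that favours close treated arrays.

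The probe sets just outside the threshold were lower too, with 1 exception. TFRC, the receptor that takes up transferrin-bound iron, read 10.54, 10.54 and 10.55 untreated and 10.85, 11.03 and 11.16 treated. The untreated arrays are almost identical, and the treated ones are all higher and spread. The difference was 0.47 ± 0.083 (SE, n = 3 per group), or 138.5% of untreated, with limma's adjusted p = 0.0563. It passed after quantile normalization (limma's adjusted p = 0.0218), after centring (0.0459), under a stricter filter on dim probe sets (0.0493) and with an intensity trend (0.0437). It did not pass without the filter (limma's adjusted p = 0.0822), in a fit of only the 6 arrays compared (0.0912), with robust variances (0.0575) or with an unmoderated test (0.331). Among the fits that left out an array it passed without 0.5 nM replicate 1 (0.0403) or 5 µM replicate 1 (0.048). Of the 8 tested genes of iron uptake and storage, 4 were higher and 4 lower, and the transporter SLC11A2 was at 0.10 and the iron regulatory protein ACO1 at -0.12.

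The other near misses were lower. The mitotic kinase PLK1 was at -0.29, the mannosidase MAN1B1 at -0.30 (limma's adjusted p = 0.0888 for each), the sugar transporter SLC2A6 at -0.31 (0.0983), the phosphorylase kinase subunit PHKG1 at -0.29 (0.114) and PCYT2, an enzyme of phosphatidylethanolamine synthesis, at -0.31 (0.119). SURF2 was at -0.26 (0.185) and the epithelial transcription factor ELF3 at -0.24 (0.208). Genes that did not pass, with an unadjusted p under 0.01 in limma and groups that do not overlap, numbered 67 lower and 13 higher of 5147 tested. Over all tested probe sets, the groups did not overlap in 9.47% on the lower side and 2.86% on the higher. The 67 and 13 are from the values as deposited and were not counted after other scalings of the arrays.

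Of the lower ones, the GTPase RAB33A was at -0.42 (limma's adjusted p = 0.324), the actin-binding calponin CNN3 at -0.41 (0.285), PIR at -0.40 (0.4), IGFBP4, which binds insulin-like growth factors, at -0.40 (0.4), MED22, a subunit of Mediator, at -0.39 (0.347) and the regulatory PI3-kinase subunit PIK3R3 at -0.32 (0.348). None of these passed.

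Of the higher ones, LAMB1, a laminin chain of the extracellular matrix, had the largest positive difference of any tested probe set. It read 6.54, 6.59 and 6.58 untreated and 6.78, 7.03 and 7.51 treated. The treated arrays spread over most of the difference, and at 0.53 ± 0.16 (SE, n = 3 per group) it did not pass (limma's adjusted p = 0.478). The angiogenic factor VEGFA read 5.98, 6.07 and 5.88 untreated and 6.17, 6.31 and 6.51 treated, a difference of 0.35 (limma's adjusted p = 0.407). Adrenomedullin, ADM, was at 0.24 (0.4). Of 15 tested hypoxia-inducible genes 8 were higher, 7 lower and 0 passed, with a median of 0.014, and 3 were higher at an unadjusted p under 0.05 against 0 lower. Over all tested probe sets these shares were 1.49% higher and 5.35% lower. UGCG, which makes glucosylceramide, was at 0.32 (0.439), and FLRT3, an adhesion protein, at 0.26 (0.302). The splicing-associated protein PNN was at 0.29, the lysosomal protease CTSB at 0.24, the kinase STK38 at 0.22, ATP5IF1, an inhibitor of the mitochondrial ATP synthase, at 0.21 and the secreted protein NELL2 at 0.20, and none of these passed.

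A rise of a dim gene was seen only when no filter on dim probe sets was applied. ABCG1, a cholesterol exporter that LXR raises, lay below the filter and was chosen after its values were seen. It read 5.42, 5.42 and 5.60 untreated and 6.47, 6.73 and 6.62 treated. The groups are far apart, and the 0.5 nM arrays at 5.86, 5.61 and 5.32 lie with the untreated ones. The difference was 1.13 ± 0.12 (SE, n = 3 per group), or 218.9% of untreated, with limma's adjusted p = 0.00801 over all 8746 probe sets. Leaving out 1 array at a time gave 1.07 to 1.20, with limma's adjusted p of 0.0787 without untreated replicate 1, 0.0603 without untreated replicate 2 and 0.0531 without 5 µM replicate 2. Other genes of the LXR list gave no call. ABCA1, also an exporter, lay below the filter at 0.063, and of 5 tested genes of the list MYLIP was at 0.18 and APOE at -0.14, and 0 passed.

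Enzymes of fatty acid synthesis and desaturation, which SREBP proteins also drive, were lower in 8 of 8 tested genes, and 0 passed. Of all tested probe sets 61.9% were lower. The median was -0.23, and 3 were lower at an unadjusted p under 0.05, as were 5.35% of all. FADS2, a desaturase, read 9.67, 9.64 and 10.05 untreated and 9.40, 9.51 and 9.25 treated, a difference of -0.40 (limma's adjusted p = 0.389). ACLY, which supplies acetyl-CoA, was at -0.32 (limma's adjusted p = 0.465), SCD at -0.33 and the fatty acid synthase FASN, chosen after its values were seen, at -0.50 ± 0.24 (SE, n = 3 per group). Of 8 genes 7 were lower without untreated replicate 2, 5 µM replicate 1 or 5 µM replicate 3.

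Genes of the mitotic spindle and its checkpoint were lower in 32 of 34 tested, and 0 passed. The median was -0.17. At an unadjusted p under 0.05, 12 were lower and 0 higher, against 5.35% and 1.49% of all tested probe sets. For 17 the treated arrays were all under the untreated ones, against 9.47% of all. The mean of the list was 9.05 to 9.08 on untreated arrays, 8.96 to 9.07 at 0.5 nM and 8.83 to 8.98 at 5 µM, so the last group lies apart from the first. This was not particular to mitotic genes. Retinoic acid genes had means of 7.14 to 7.23 untreated and 7.09 to 7.10 at 5 µM. That list holds CRABP2, which passed at -0.57, and its median was -0.019. The 5 µM means also lay below the untreated ones in the lists of sterol synthesis, sterol sensing, fatty acid synthesis and DNA replication. They did so for mesenchymal, astrocyte and epithelial markers too, while those of p53 targets lay above. In lists such as calcium handling the means overlapped, at 7.83 to 7.88 untreated and 7.74 to 7.85 at 5 µM. PLK1 read 8.66, 8.51 and 8.62 untreated and 8.29, 8.30 and 8.32 treated. The cyclin CCNB2 was at -0.24 (limma's adjusted p = 0.265) and the phosphatase CDKN3 at -0.26 (0.302). After quantile normalization 30 of 34 were lower. DNA replication genes were lower in 23 of 28, against 61.9% of all tested probe sets, with a median of -0.069. The 2 at an unadjusted p under 0.05, a share near the 5.35% of all, were the DNA polymerase subunit POLA1 at -0.19 and GINS2 of the replicative helicase at -0.18.

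Genes of the noradrenergic neuroblast were the highest list, with 12 of 13 tested above untreated and a median of 0.089, and 0 passed. This check of the label found the lineage factor GATA3 at 11.80 to 11.96 untreated and 11.97 to 12.01 treated, and the vesicular transporter SLC18A1 at 0.21. The defining enzyme TH and SLC18A2 and RET lay below the filter. Without untreated replicate 2 the list had 6 of 13 higher and a median of -0.0059, so the direction rests on that array. Secretory granule genes were higher in 11 of 12 with a median of 0.086, SCG2 at 0.20 and CHGA at 0.20. Their array means overlapped, at 8.15 to 8.31 untreated and 8.28 to 8.34 treated. Neurite and synapse genes were higher in 22 of 32, and in 16 of 32 without 5 µM replicate 3.

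**Figure D3:**
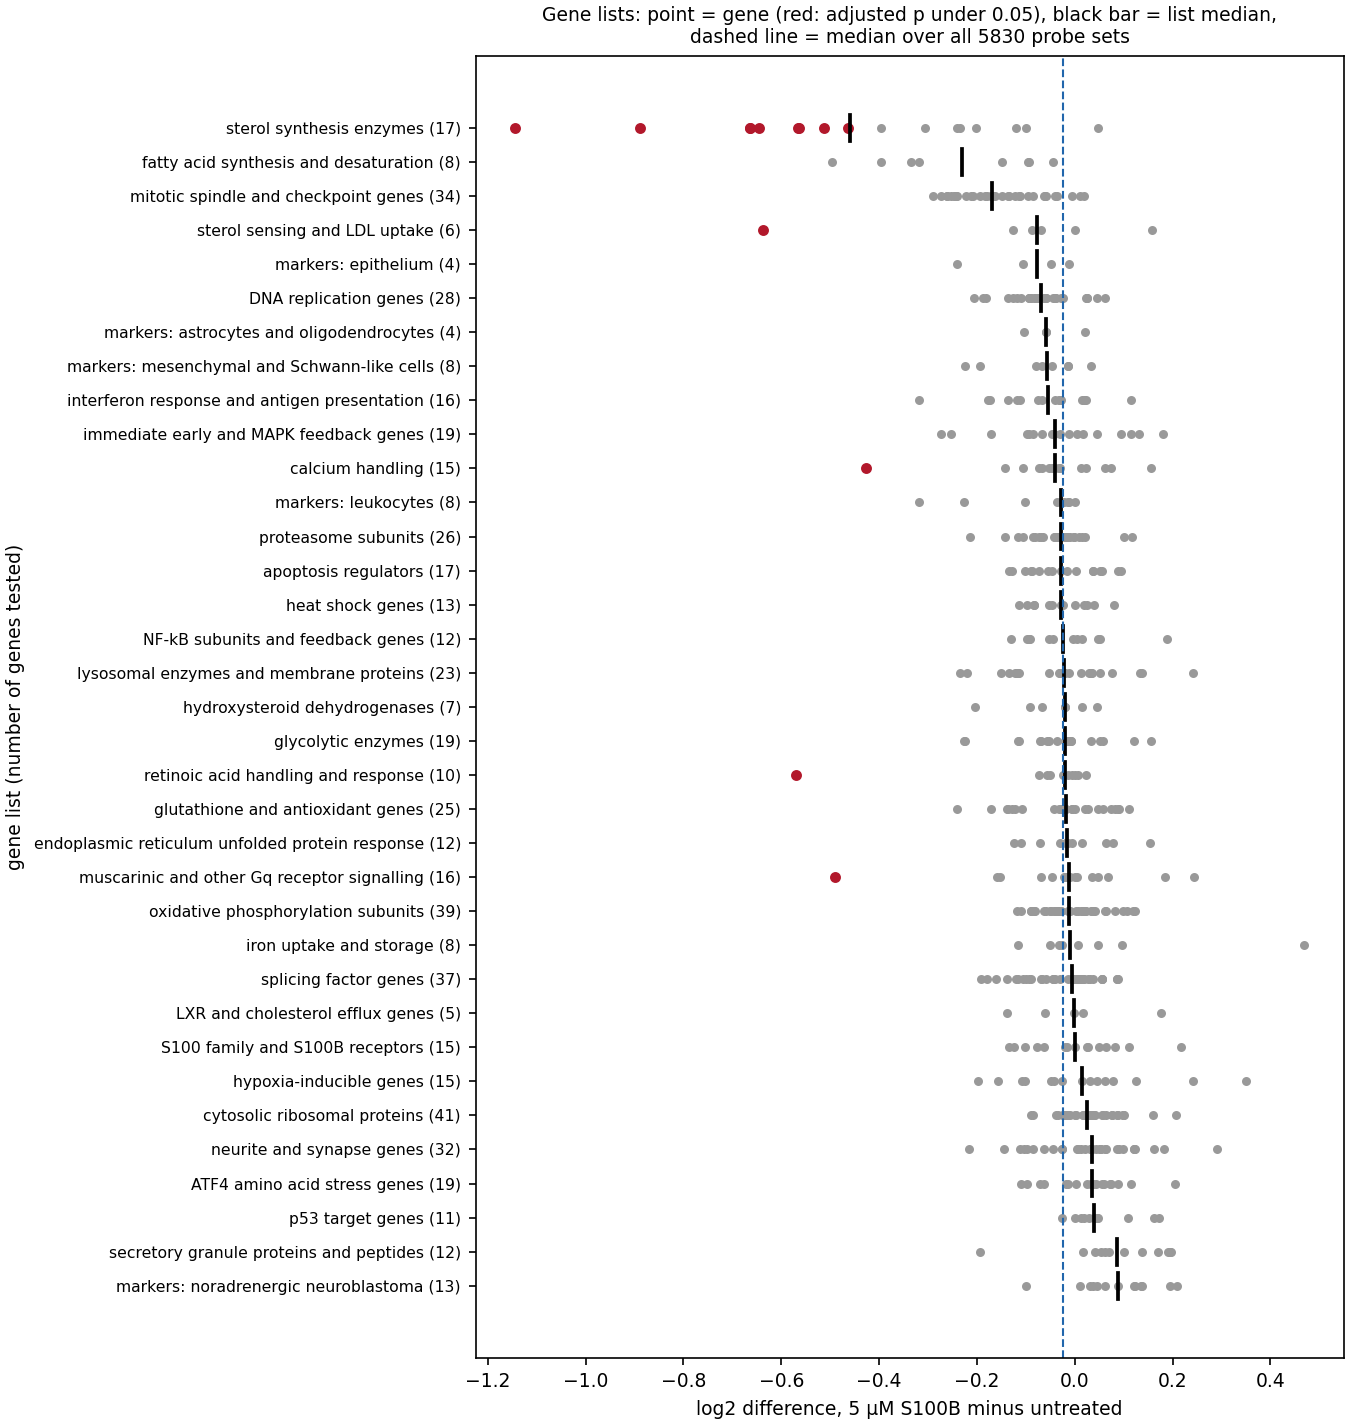
Log2 difference of each tested gene (points; red where limma's adjusted p is under 0.05) in 35 gene lists, with each list's median (black bar) and the median of all 5830 probe sets, -0.024 (dashed line). Sterol synthesis stands at a median of -0.46, fatty acid synthesis at -0.23 and mitotic genes at -0.17, and the other medians lie between -0.078 and 0.089.

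Genes of S100B's own signalling showed no call. AGER, at 5.84 to 5.93 untreated, and S100B, at 5.56 to 5.73, lay below the filter, with differences of 0.065 and -0.076. FGFR1, which S100B can bind, was at 0.083, the amyloid precursor APP at 0.044 and the neuroblastoma oncogene MYCN at 0.046, and none passed. The list of the S100 family and its receptors also holds signalling genes such as SRC, DIAPH1 and STAT3. Of its 15 tested genes 8 were higher and 7 lower, with the kinase SRC at 0.22. Of 12 tested NF-kB genes 7 were lower and 5 higher, with the inhibitor NFKBIA at 0.19. Of 19 immediate early and MAPK feedback genes, MYC was at -0.27 and ETV1 at -0.25, and 0 passed.

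Lists of stress and death gave no call either. The p53 targets were higher in 9 of 11 tested, with a median of 0.04 and the death receptor TNFRSF10B at 0.17. Genes of the ATF4 response were higher in 13 of 19 with a median of 0.035 and CEBPB at 0.20, and those of the unfolded protein response were lower in 8 of 12 as deposited and in 4 of 12 after quantile normalization, with XBP1 at 0.15. Apoptosis regulators had a median of -0.027, and glutathione and antioxidant genes -0.018. Housekeeping groups stayed close to 0, with medians of 0.025 for 41 ribosomal proteins, -0.011 for 39 subunits of oxidative phosphorylation, -0.0061 for 37 splicing factors and -0.028 for 26 proteasome subunits. The median of 19 glycolytic enzymes was -0.02, where the aldolase ALDOC stood at -0.22. It was -0.022 for 23 lysosomal genes, -0.027 for 13 heat shock genes, and -0.054 for 16 interferon response and antigen presentation genes, where IFITM2 stood at -0.17. None of the genes in these lists passed.

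Markers of other cell types were dim or did not pass. Of 8 tested leukocyte markers 8 were lower, with CD74 at -0.32 and CORO1A at -0.23, but 4 of 8 after quantile normalization, and PTPRC, CD14, TYROBP and FCER1G lay below the filter. The array means of this list were 6.80 to 6.91 untreated and 6.71 to 6.82 treated. Of 8 mesenchymal and Schwann-like markers 7 were lower (6 after quantile normalization and 5 after centring), with ANXA2 at -0.22. Their array means were 7.88 to 7.96 untreated and 7.82 to 7.87 treated. Of 4 epithelial markers 4 were lower, led by ELF3 (3 of 4 after quantile normalization), with array means of 6.42 to 6.56 untreated and 6.37 to 6.39 treated, and EPCAM and CDH1 lay below the filter. Of 4 astrocyte and oligodendrocyte markers 3 were lower. The part of these markers in the falls above was not tested.

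The calls differ in how well they hold when an array is removed. Of the 17, 4 passed whichever of the 9 arrays was left out, namely 210950_s_at, HMGCS1, MSMO1 and HSD17B7. SQLE passed in 6, LSS, FDPS and DHCR7 in 5, and INSIG1, 202539_s_at and IDI1 in 4. CHRM3 and 200862_at passed in 3, CRABP2, PPEF1 and SC5D in 2, and 202943_s_at in 1. All 17 kept their direction in each of these fits. TFRC, outside the threshold with all arrays, passed in 2 of the 9.

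**Figure D4:**
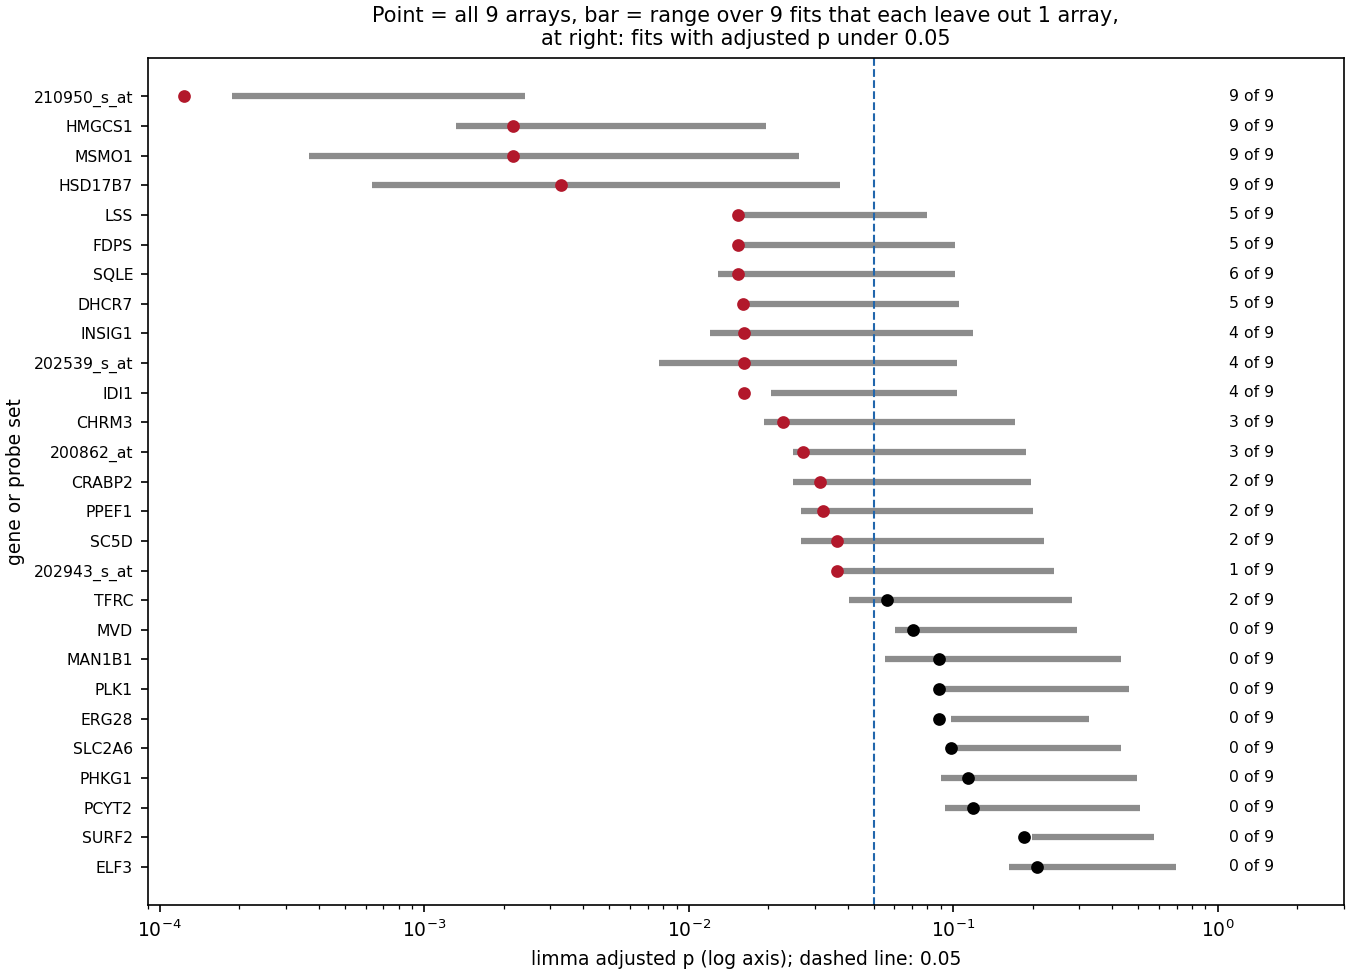
Limma's adjusted p (log axis) of each probe set with all 9 arrays (point) and its range over the 9 fits that each leave out 1 array (bar), with the number of those fits under 0.05 at the right and the threshold as a dashed line. 210950_s_at, HMGCS1, MSMO1 and HSD17B7 passed in 9 of 9 leave-one-out fits, and 202943_s_at in 1.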

How the data were processed

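Biotin-labelled cRNA from 5 µg of total RNA was hybridised to Affymetrix 1-colour arrays, per the labels' protocols. The values deposited by the authors are log2 levels per probe set, and GCRMA is the tool credited per the submitters' processing notes (version not given in the sources used here). GCRMA corrects background, normalises arrays and summarises probes. It can compress dim differences, which was not tested. The range of the values, 4.37 to 14.5, shows the log2 scale.

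After 47 controls were removed, the 2916 dimmest probe sets by the mean over 9 arrays (at most 5.95) were left out. limma 3.58.1 in R 4.3.3 (lmFit, eBayes) was fitted to all 9 arrays with 1 factor of 3 groups, and p was adjusted by Benjamini-Hochberg over 5830 probe sets. An exact permutation test of 3 against 3 cannot go below a p of 0.1. The procedure was also run on simulated data with independent noise and no shift of whole arrays. That run does not bear on how the calls depend on the scaling. Of 8746 probe sets 7840 had 1 symbol, 388 several and 518 no entry, and 7838 were updated through RefSeq. A gene's promoter windows were searched on both strands. Coordinates of probe sets are not given.

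Named are all probe sets past the threshold, the 10 just outside, up to 12 higher and 12 lower near misses, 3 members of each list by p, and 14 set genes. Genes outside this rule are marked in the text or stand for a marker list's members below the filter. The comparison, the gene lists and this rule were chosen with earlier results of these data known. Alternatives were scaling, filter, fewer arrays, a replicate block and other variance models.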

Additional observations from a re-analysis of the deposited data

How the results depend on the processing

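The count of 17 changed probe sets, all lower, was 16 after quantile normalization, 16 after centring, 16 without the filter, 18 under a stricter filter, 17 with robust variances and 20 with an intensity trend. These include 1 higher probe set in the quantile, centred, stricter-filter and trend fits, TFRC, and 1 without the filter, ABCG1. It was 7 in a fit of only the 6 arrays compared and 1, 210950_s_at, with an unmoderated test. Leaving out each array gave 4 to 17 calls. These were 4, 7 and 4 without untreated replicates 1, 2 and 3, and 6, 8 and 9 without 5 µM replicates 1, 2 and 3. Leaving out 0.5 nM arrays gave 17, 15 and 14. These fits have fewer arrays. With the replicate block 15 passed, without PPEF1 and 202943_s_at. Same-numbered arrays correlated in their deviations at 0.0492, 0.229 and 0.298, and 5 µM replicate 1 correlated best with untreated replicate 2, at 0.104, so the numbers were not taken to pair the samples. No value changed direction past the threshold. The fits that add 0.5 nM arrays borrow their spread. ABCG1 without the filter was tried in further fits chosen after seeing the data. Signal over background could not be assessed, and the number of arrays limits the precision.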
